A study of Mus musculus with 104 samples.

Results

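The region described here is the 1.5 Mb window of chromosome 12 from 54000001 to 55500000 (mm9), which goes by the name of Npas3. It is 1 of 1447 windows of 1.5 Mb that could be tested, and its members are all junctions that the deposited tables place in it, each read name counted once per table. It held 886 of the 530589 junctions that lay more than 5 Mb from the bait break of their own pool, or 0.167%. Of these, 787 came from neural progenitor cells and 99 from embryonic stem cells. No annotation of the mm9 build was at hand, so the exons and introns of Npas3 were not placed in the window. In the RefSeq gene order of GRCm38.p6, another build, the protein-coding neighbours of Npas3 (gene 27386) are Akap6 on one side and Egln3 on the other.

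Npas3 encodes a transcription factor of the bHLH-PAS family that acts in the developing brain, and its gene is among the long genes of the mouse genome. Slowed replication forks can leave breaks in long genes, and in neural stem and progenitor cells such breaks are known to gather in recurrent DNA break clusters. High-throughput genome-wide translocation sequencing (HTGTS) maps them through a bait, a break made at a fixed site. The bait end is joined to a break elsewhere, called the prey, and the joined molecule is amplified from the bait and read. A join on the same chromosome as the bait is more frequent than one between chromosomes, which is why the bait on chromosome 12 is kept apart below from the baits on chromosomes 7 and 15.

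The study asked whether embryonic stem cells (ESC) and neural progenitor cells derived from them in culture (NPC) form such clusters under replication stress. All cells were mouse C57BL6/129SVE and Xrcc4-/- p53-/-, so the controls too lacked Xrcc4, a factor of DNA end joining, and the tumour suppressor p53. ESC of 2 lines and NPC of the same 2 lines carried the bait on chromosome 7, 12 or 15 and received either aphidicolin (APH), which blocks replicative polymerases and so slows forks, or the solvent DMSO. Neither the dose nor the length of treatment is given in the labels used here. ESC were grown in serum medium and NPC in serum-free neural media, so cell type and medium cannot be told apart. One table per combination of these factors made 24 pools from 104 experiments, or 6 pools in each of the 4 conditions. Nothing in the labels ties pools or experiments to separate cultures, so p-values reflect only the variation among these pools, part of which may be technical. Pools held 32896 to 211923 junctions, of which 12521 to 88541 in NPC and 4700 to 12931 in ESC lay beyond 5 Mb of the bait break. ESC pools were thus shallower than every NPC pool but 1, and their window values rest on few junctions.

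Several pools contain the same junctions, and this touches the results. Between experiments the median share of junction positions in common was 0.0483% over 4005 pairs, but 36 pairs shared more than 10%, and 21 of these lay in different pools. Each of the 8 experiments labelled NPC line 1 bait 15 had 65.0 to 85.1% of its positions again in the tables labelled NPC line 2 bait 15. The treatment labels did not match throughout. Experiments A and C labelled line 1 APH had 76.2% and 71.9% of their positions in the table labelled line 2 DMSO. Experiments A and D labelled line 1 DMSO had 66.2% and 68.7% in the table labelled line 2 APH. For the other 4 experiments the treatment labels were the same on both sides. Which label is right cannot be told apart from these files, so the tests on NPC that use bait 15 are also given without its 4 NPC pools.

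**Figure D1:**
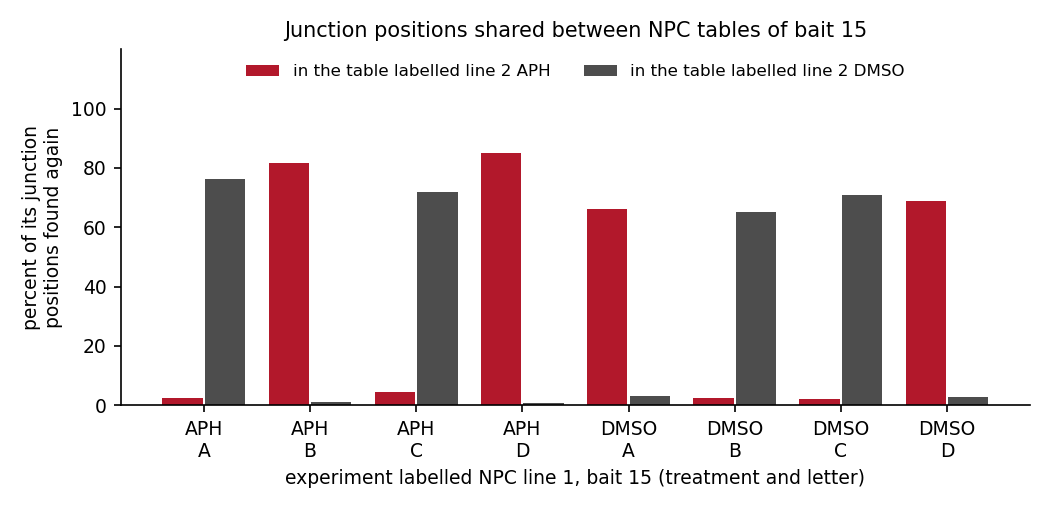
Percent of the junction positions of each of the 8 experiments labelled NPC line 1 bait 15 that are found again in the table labelled NPC line 2 bait 15 APH (red bars) or DMSO (grey bars), on an axis from 0 to 100%. APH experiments A and C lie in the line 2 DMSO table at 76.2% and 71.9%, and DMSO experiments A and D in the line 2 APH table at 66.2% and 68.7%.

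Inside the window, 98 positions of the pool labelled NPC line 1 bait 15 APH included 42 that recurred in line 2 APH and 35 that recurred in line 2 DMSO. The chromosome 12 bait was much less affected. The pool NPC line 1 bait 12 APH shared 13 of its 214 window positions with NPC line 2 bait 12 APH, through its experiment C, which had 44.1% of its positions in experiment D of line 2. That experiment C also had 16.1% of its positions in experiment C of line 2. Experiment A of ESC line 1 bait 12 DMSO had 33.2% of its positions in experiment B of NPC line 1 bait 12 DMSO. In the window these pools shared 1 position. NPC line 2 bait 7 shared no window position with another pool under either treatment. All 5 window positions of ESC line 2 bait 15 DMSO occurred in other pools. In total, the 886 junctions fell on 705 positions and strands, 116 of them found in more than 1 pool.

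The joins themselves are shown by reads from the fullest pool, NPC line 1 bait 12 APH, because the read carries both ends and the bases they share. The first 3 are minus-strand joins from the 100 kb step between 54.6 and 54.7 Mb and the last 2 plus-strand joins from 54.9 to 55.0 Mb, the steps with the most junctions of their strand in that pool. In each, 28 bases of the bait on chromosome 12 come first and 28 bases of the prey last. Capitals mark the bases that align to both, and a read without capitals is a blunt join.
minus strand, 54610789, no overlap: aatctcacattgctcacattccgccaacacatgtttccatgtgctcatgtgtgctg
minus strand, 54618123, 2 bases: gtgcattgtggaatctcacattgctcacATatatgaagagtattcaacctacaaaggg
minus strand, 54629996, 4 bases: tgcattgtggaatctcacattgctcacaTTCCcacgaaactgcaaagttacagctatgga
plus strand, 54904989, 2 bases: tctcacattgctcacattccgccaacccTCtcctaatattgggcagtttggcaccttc
plus strand, 54989960, 4 bases: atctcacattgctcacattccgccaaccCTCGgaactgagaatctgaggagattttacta
The bait stops at slightly different bases in different reads, while the prey differs in all 5.

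With the bait on the same chromosome, APH raised the share of junctions in the Npas3 window of NPC. In line 1 the window held 225 junctions under APH, 0.485% of junctions beyond 5 Mb (95% exact Clopper-Pearson interval 0.424 to 0.552%), and 49 under DMSO, 0.206% (0.153 to 0.273%). In line 2 it held 113 under APH, 0.692% (0.571 to 0.832%), and 36 under DMSO, 0.288% (0.201 to 0.398%). The intervals cover counting error only, since PCR reads carry no molecular identifiers here and may repeat a molecule. Neither line's APH and DMSO intervals overlapped, and the ratio of APH to DMSO was 2.35 in line 1 and 2.41 in line 2.

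In counts scaled to library size (CPM, with TMM factors), the NPC bait 12 pools reached 6300 ± 1860 under APH and 2371 ± 624 under DMSO (SD, n = 2 each). The fitted change over all 24 pools was a log2 fold change of 1.40 ± 0.36 (SE), adjusted p = 0.0136 by edgeR's quasi-likelihood test with Benjamini-Hochberg adjustment over 1447 windows. In that comparison 2.07% of the windows were called higher, and the Npas3 window is 1 of them. The call rests on both lines: without NPC and ESC of line 1 the adjusted p was 0.707, without line 2 0.109, and without the bait 12 pools of line 1 or line 2 alone 0.37 or 0.656. In those 4 fits the fold change stayed between 1.36 and 1.39.

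Single experiments separated in the same way. In line 1, the 4 APH experiments held 0.46, 0.588, 0.878 and 0.423% of their junctions in the window, and the 4 DMSO experiments 0.213, 0.209, 0.321 and 0.15%. In line 2, the 3 APH experiments with reads of their own held 0.654, 0.725 and 0.719%, and the 4 DMSO experiments 0.155, 0.389, 0.388 and 0.243%. Every APH experiment was above every DMSO experiment of its line. Experiment C of line 1 under APH, at 0.878%, is the one that shares positions with APH experiments of line 2. The difference held within sequencing runs, which regroup the same junctions and do not add to them. With bait 12 in line 1 each run held 1 experiment per treatment, so its values repeat those above. In the 7 runs, going by the read names, that read both treatments of NPC bait 12 in a line, APH was higher 7 times, with 0.423 to 0.878% against 0.15 to 0.388%. With NPC bait 7 it was higher in 4 of 4 such runs (0.061 to 0.178% against 0.0233 to 0.0801%), but by little or on few junctions. The bait 7 runs of line 1 gave 0.0805% against 0.0801%, and 0.061% against 0.0485% from 1 DMSO junction. Those of line 2 gave 0.178% against 0.0233% from 1 DMSO junction, and 0.077% against 0.0745% from 2 junctions each. Line 2 DMSO experiments A and B of bait 7, at 0.146 and 0.161%, were read in another run and are not in this comparison. With NPC bait 15, APH was higher in 1 of 2 runs (0.1 to 0.117% against 0.0965 to 0.108%).

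**Figure D2:**
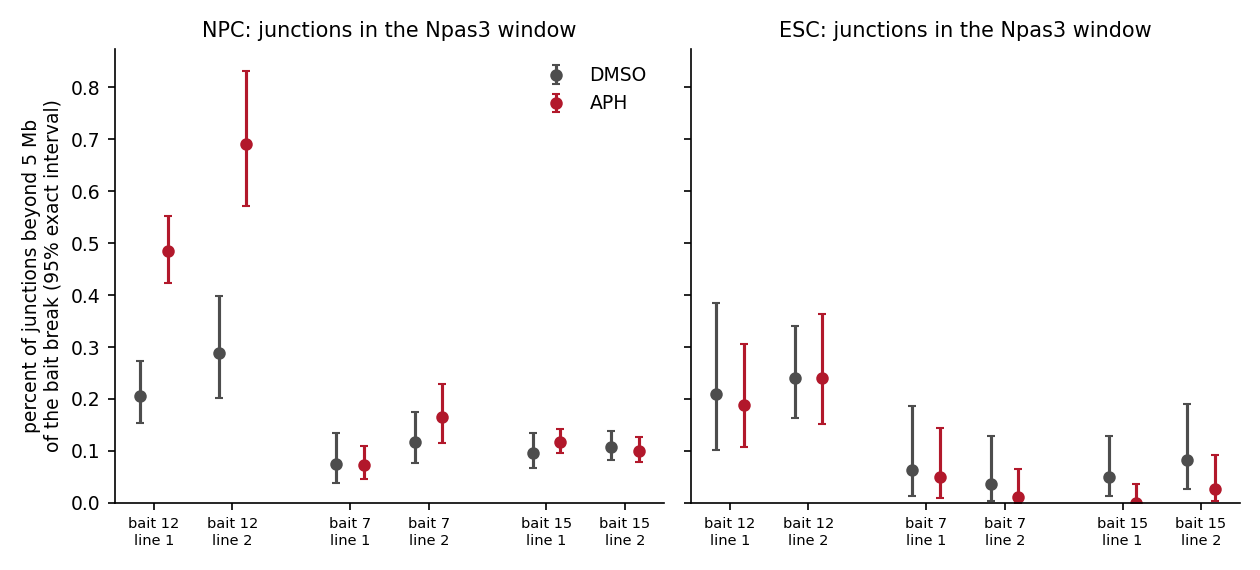
Percent of junctions beyond 5 Mb of the bait break that fell in the Npas3 window, for each of the 24 pools (points) with 95% exact intervals (bars), NPC on the left and ESC on the right, APH in red and DMSO in grey. The 2 NPC pools of bait 12 under APH stand at 0.485% and 0.692%, above every other pool.

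With the baits on chromosomes 7 and 15, where the window lies on another chromosome than the break, APH and DMSO pools of NPC overlapped. For bait 7 the window held 0.0733% of junctions under APH and 0.0756% under DMSO in line 1, from 23 and 11 junctions. In line 2 of bait 7 it held 0.165% under APH and 0.118% under DMSO, from 36 and 25 junctions. For bait 15, the pools labelled line 1 held 0.117% and 0.0965% under APH and DMSO, and those labelled line 2 held 0.1% and 0.108%, with 104, 35, 67 and 63 junctions. Levels were 1221 ± 451 CPM under APH and 979 ± 168 under DMSO (SD, n = 4 each). The fitted change of 0.26 ± 0.28 did not pass (edgeR, adjusted p = 0.862), where 2.35% of windows were called higher. Leaving out the 4 bait 15 pools, it was 0.46 ± 0.42, adjusted p = 0.888.

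The APH change in NPC was 1.14 ± 0.46 larger on the log2 scale with bait 12 than with baits 7 and 15, unadjusted p = 0.0149. That difference did not pass over all windows (edgeR, adjusted p = 0.997), and 0.0% of windows were called, 23 of them higher at an unadjusted p under 0.05. DESeq2 gave 1.15 ± 0.40 for the same difference, adjusted p = 0.997, and also called 0 windows. Without the 4 NPC pools of bait 15 the difference was 0.96 ± 0.53 (edgeR, adjusted p = 0.997). The bait classes were therefore not shown to differ in their response to APH.

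In ESC no change of the window passed the test. With bait 12 it held 16 junctions under APH and 10 under DMSO in line 1 (0.189% and 0.21%), and 22 and 31 in line 2 (0.241% and 0.24%). The 22 and 31 junctions of line 2 lay on only 13 and 16 positions. Levels were 2213 ± 392 and 2103 ± 389 CPM (SD, n = 2 each), and the fitted change was 0.07 ± 0.47 (edgeR, adjusted p = 0.982, 0.553% of windows called higher). This sign turned under other scalings, so no direction is given.

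With baits 7 and 15, ESC under APH held 6 window junctions in 4 pools, at 3, 1, 0 and 2, and under DMSO 14, at 3, 2, 4 and 5. The empty pool, line 1 bait 15 APH, had 10357 junctions beyond 5 Mb, for which the 95% exact interval reaches up to 0.0356% and 3 counts would be 0.029%. The fitted change was −1.52 ± 0.71, unadjusted p = 0.0347, which did not pass over all windows (edgeR, adjusted p = 0.658, 0.0% of windows called lower, 41 at an unadjusted p under 0.05). DESeq2 gave −1.55 ± 0.73, adjusted p = 0.721, and also called 0 windows lower. With junctions at positions of 1 pool only, the change was smaller, at −0.72 ± 0.85 (edgeR, unadjusted p = 0.394, adjusted p = 0.893).

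Under APH, the window was higher in NPC than in ESC with baits 7 and 15. The 4 NPC pools held 230 junctions among 208521, 0.11% (0.0965 to 0.126%), and the 4 ESC pools 6 among 32782, 0.0183% (0.00672 to 0.0398%). The lowest NPC pool, at 819 CPM, lay above the highest ESC pool, at 498 CPM. The fitted difference was 2.57 ± 0.56 on the log2 scale (edgeR, adjusted p = 0.000859), where 3.66% of windows were called higher. Without the 4 NPC pools of bait 15 it was 2.67 ± 0.67, adjusted p = 0.00453. It missed the threshold when line 1 was left out (2.78 ± 0.86, adjusted p = 0.173) or line 2 (2.41 ± 0.85, adjusted p = 0.151).

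With bait 12 under APH the difference was 1.49 ± 0.45, just outside the threshold (edgeR, adjusted p = 0.0622, 1.45% of windows called higher). Both NPC pools, at 4986 and 7615 CPM, exceeded both ESC pools, at 1936 and 2490. It passed without the NPC pools of bait 15 (1.52 ± 0.37, adjusted p = 0.00343) and when repeated positions on a strand within a pool counted as 1 (1.63 ± 0.42, adjusted p = 0.0147). It did not pass without the bait 12 pools of line 1 (adjusted p = 0.285) or line 2 (0.66), without line 1 (0.465) or line 2 (0.71) altogether, or with junctions at positions of 1 pool only (1.38 ± 0.47, adjusted p = 0.122). Under DMSO the cell types did not differ past the threshold with either bait class. The values were 0.78 ± 0.48 with baits 7 and 15 (edgeR, adjusted p = 0.552, 0.346% called higher) and 0.18 ± 0.48 with bait 12 (edgeR, adjusted p = 0.959, 0.0% called, 48 higher at an unadjusted p under 0.05). DESeq2 gave an adjusted p of 0.969 for the latter and also called 0 windows higher. With baits 7 and 15, leaving out the 4 NPC pools of bait 15 gave 0.73 ± 0.65 (edgeR, adjusted p = 0.807).

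The APH change in NPC exceeded that in ESC by 1.63 ± 0.54 over all baits, which did not pass either (edgeR, adjusted p = 0.308, 0.0691% of windows called higher). So a response to APH in NPC, and none past the threshold in ESC, does not show that the cell types responded differently. Without the 4 NPC pools of bait 15 the difference was 1.76 ± 0.59 (edgeR, adjusted p = 0.219). With junctions at positions of 1 pool only, it was 1.1 ± 0.65 (edgeR, adjusted p = 0.743).

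The neighbouring windows set the scale along the chromosome. Under APH with bait 12, the 2 windows below the Npas3 window (51.0 to 52.5 and 52.5 to 54 Mb) stood at 1743 ± 490 and 1754 ± 474 CPM in NPC (SD, n = 2). The 2 above it (55.5 to 57.0 and 57.0 to 58.5 Mb) stood at 1897 ± 176 and 2312 ± 543. The Npas3 window, at 6300, was thus more than any of its neighbours, and their own APH changes ran from 0.01 ± 0.35 to 0.69 ± 0.35 with adjusted p from 0.523 to 0.996 (edgeR). In ESC under APH the order was different. The Npas3 window, at 2213 ± 392, was level with 52.5 to 54 Mb, at 2258 ± 969, and these were the lowest of the 5. The highest was 51.0 to 52.5 Mb, at 3878 ± 1720. With baits 7 and 15 in NPC under APH, the 4 neighbours held 333 to 451 CPM and the Npas3 window 1221. Under DMSO they held 333 to 456 CPM and it held 979, so the window stood above its neighbours in NPC without APH too.

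Among the 70 windows of chromosome 12 with bait 12, the Npas3 window ranked 4th in NPC under APH, 9th in NPC under DMSO, 27th in ESC under APH and 16th in ESC under DMSO. In NPC under APH, 2 of the 3 windows above it lay at the edge of the chromosome nearest the bait, from 3.0 to 6.0 Mb. The other, 42.0 to 43.5 Mb, stood at 6306 CPM, level with it. That window was high in ESC under APH as well, at 6486, where the Npas3 window was at 2213. For bait 7 in NPC under APH the Npas3 window ranked 1st of 70, and for bait 15 it ranked 3rd. For bait 15 in ESC under APH it ranked 70th, the last, but on only 2 junctions in 2 pools.

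**Figure D3:**
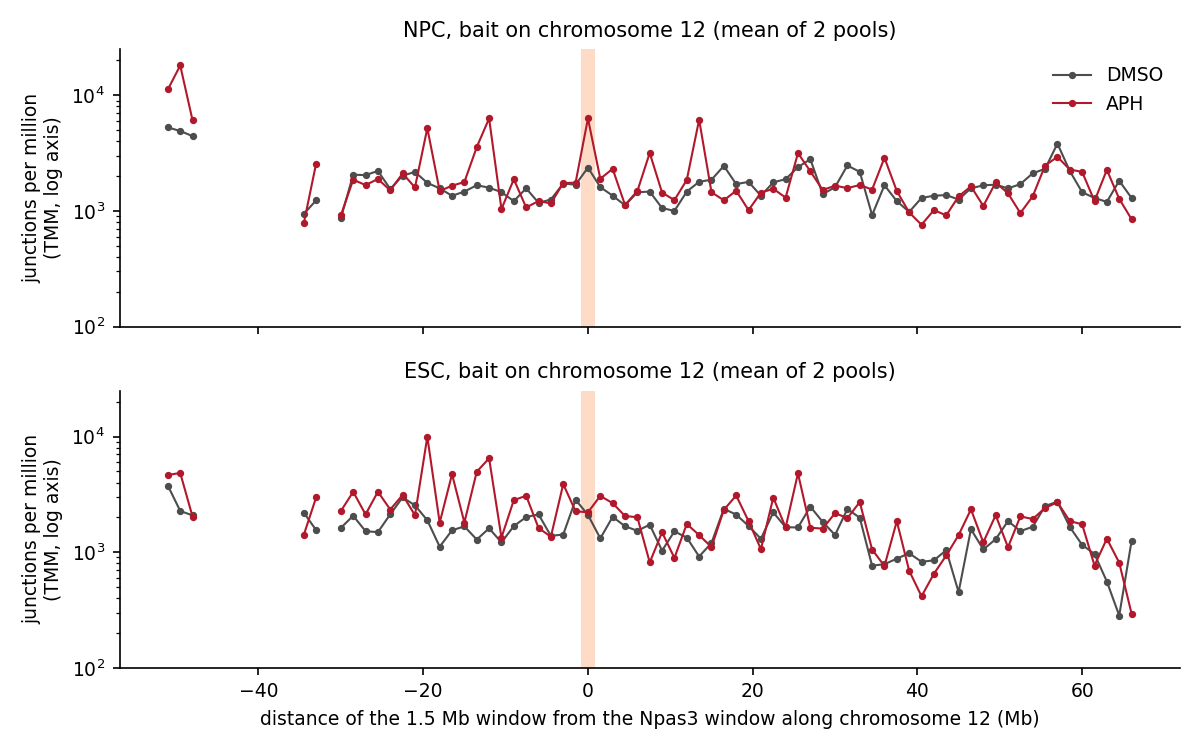
Level of each 1.5 Mb window of chromosome 12 in CPM (log axis, mean of 2 pools) with the bait on chromosome 12, against its distance from the Npas3 window in Mb, NPC above and ESC below, APH red and DMSO grey. Gaps are windows near the bait break or with too few junctions, which were not tested. The shaded Npas3 window reaches 6300 in NPC under APH against 2371 under DMSO, while in ESC it lies at 2213 under APH and 2103 under DMSO.

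A measure within the chromosome does not depend on scaling between pools. The local share is the number of junctions in the Npas3 window over those in it and the 10 windows around it, 5 on each side, and equal windows would give 9.09%. In NPC with bait 12 it was 25.2% and 28.5% under APH in lines 1 and 2, against 13.8% and 14.4% under DMSO. With bait 7 it was 16.7% under both treatments in line 1, and 35.0% against 26.9% in line 2. With bait 15 it was 22.9% against 23.0% in the pools labelled line 1 and 21.1% against 21.4% in those labelled line 2. All 12 NPC values were above 9.09%, so the window exceeded the average of its surroundings in each NPC pool, with APH or without. This was not particular to NPC. The 6 ESC pools under DMSO held 10.4 to 17.6%, also above 9.09%, and the 6 under APH 0.0 to 10.7%.

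Over the 6 line and bait pairs of NPC, the local share was 5.52 ± 6.53 percentage points higher under APH (SD, exact two-sided sign-flip test p = 0.25, adjusted p = 0.374 over 6 such tests). The difference was 11.4 and 14.1 points in the bait 12 pairs, 8.07 and 0.0 with bait 7, and −0.169 and −0.359 with bait 15. Without the bait 15 pairs the mean was 8.41 ± 6.13 points over 4 pairs (exact sign-flip p = 0.25). The pair of line 1 bait 7 had a difference of 0.0, whose sign does not matter, so 0.25 was the smallest p possible here. In ESC the local share was lower under APH in 6 of 6 pairs, with differences from −12.1 to −1.17 points and a mean of −6.92 ± 4.68 (exact p = 0.0312, adjusted p = 0.0936). This is the smallest p that 6 pairs allow. The local share also moves with the windows around it. With bait 12 in ESC, the fitted APH change was 1.52 ± 0.42 at 51.0 to 52.5 Mb (edgeR, adjusted p = 0.0755) and 1.25 ± 0.43 at 55.5 to 57.0 Mb (adjusted p = 0.24). Neither passed, and the Npas3 window itself stood at 0.07 ± 0.47. The ESC differences with baits 7 and 15 rest on 0 to 5 window junctions per pool, and the mean was −5.09 ± 6.94 (exact p = 0.156) with junctions at positions of 1 pool only.

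Junctions were spread across the window rather than gathered at a site. The fullest 1 kb held 7 of the 886 junctions, 0.79%, and no position and strand held more than 4. Under APH, 289 of 568 NPC junctions, or 50.9%, lay in the middle 500 kb from 54.5 to 55.0 Mb. Under DMSO it was 69 of 219, 31.5%, close to an even spread over the 3 sections. The bait classes differed in extent. With bait 12 the middle section held 57.7% under APH and 35.3% under DMSO, and with baits 7 and 15 40.9% and 29.1%. Counted in 500 kb bins with bait 12, the APH change in NPC was 1.96 ± 0.57 in the middle section (edgeR, adjusted p = 0.0242 over 882 bins). In the sections before and after it, it was 0.96 ± 0.55 (adjusted p = 0.495) and 0.44 ± 0.54 (adjusted p = 0.844). With baits 7 and 15 the APH change in the middle section was 0.66 ± 0.46 and did not pass (edgeR, adjusted p = 0.677). The bins were not refitted without bait 15.

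The width that holds the middle 80% of window junctions shows the same per pool, and was chosen after the values were seen. It was 653 to 821 kb in the 6 NPC pools under APH and 1029 to 1154 kb in the 5 NPC pools under DMSO with 20 or more junctions, with no overlap. An even spread would give 1200 kb. Over 5 pairs it was −304 ± 65 kb under APH (SD, exact sign-flip p = 0.0625, the smallest that 5 pairs allow, adjusted p = 0.125), narrower in each. Without the bait 15 pairs it was −327 ± 80 kb over 3 pairs. With no minimum of junctions it was −278 ± 87 kb over 6 pairs (exact p = 0.0312, the smallest that 6 pairs allow). In ESC, line 2 bait 12 had a width of 708 kb under APH and 1037 kb under DMSO, from 22 and 31 junctions. In both bait classes the width was similar, at 748 kb with bait 12 and 799 kb with baits 7 and 15 under APH.

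At its edges the window fades into its surroundings. The first 100 kb inside its lower edge held 24 junctions and the last 100 kb outside it 29. Inside the upper edge there were 29, and outside it 20. The 100 kb step with the most NPC junctions under APH differed by bait class. It was 54.6 to 54.7 Mb with bait 12, at 49 against 36 from 54.4 to 54.5 Mb, and 54.4 to 54.5 Mb with baits 7 and 15, at 43 of 230.

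Strand adds a second pattern. A plus-strand junction keeps prey sequence on the telomeric side of the break and a minus-strand junction on the centromeric side. The break of the bait on chromosome 12 lies 41.0 Mb nearer the centromere. If that bait is read toward the telomere, a plus-strand junction has the orientation of a deletion and a minus-strand one that of an inversion. The direction of the bait was not checked here, so junctions are described by strand only. Over all pools the strands were equal, 443 plus and 443 minus.

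Within the window the strands lay apart. In NPC under APH, the step from 54.4 to 54.5 Mb held 62 minus and 17 plus junctions, with 36 of the 62 from baits 7 and 15, and the step from 55.0 to 55.1 Mb held 15 minus and 35 plus. By section, plus junctions made up 33.8% (95% exact interval 26.4 to 41.8%) of the 154 from 54 to 54.5 Mb, 47.8% (41.9 to 53.7%) of the 289 in the middle and 62.4% (53.3 to 70.9%) of the 125 from 55.0 to 55.5 Mb. The order was the same with bait 12 (37.2, 47.7 and 66.2%) and with baits 7 and 15 (30.3, 47.9 and 58.3%). The rise therefore appeared whether or not bait and prey shared a chromosome. Under DMSO the sections of NPC held 44.6, 60.9 and 60.5% plus junctions, with intervals that overlap. The intervals treat the junctions of all 6 pools as independent, while the bait 15 pools share positions, also across treatment labels. They therefore cannot set APH against DMSO. With bait 12 alone the APH intervals were 26.5 to 48.9%, 40.5 to 54.9% and 53.4 to 77.4%.

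**Figure D4:**
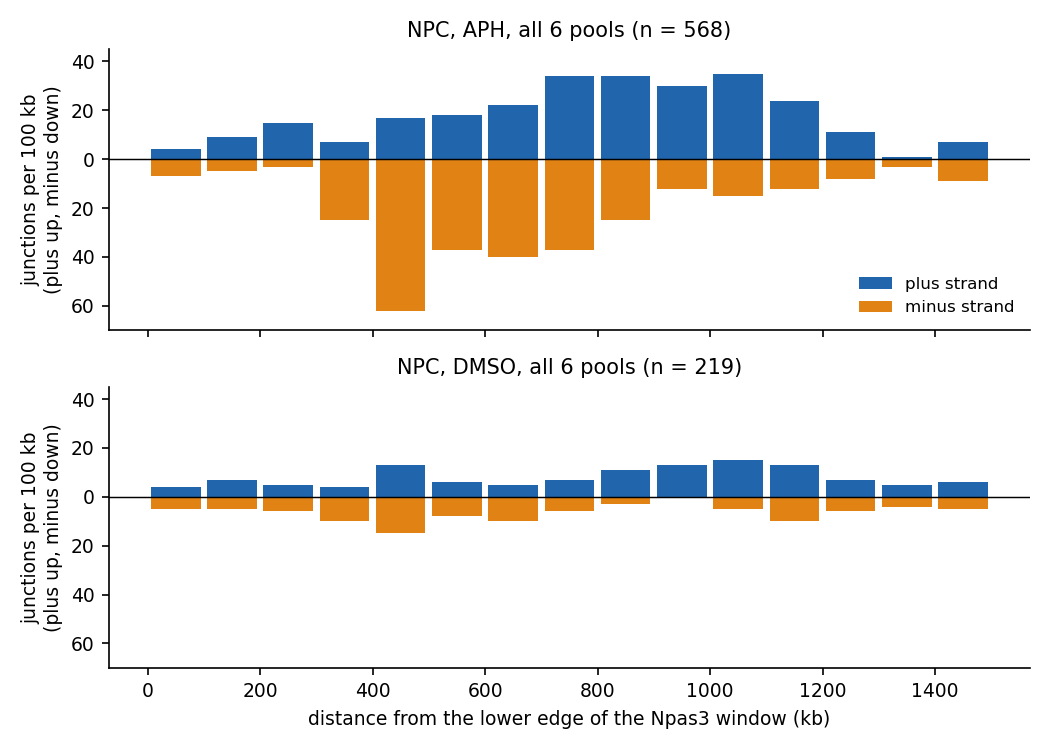
Junctions per 100 kb across the Npas3 window in NPC, plus strand upward in blue and minus strand downward in orange, against the distance from the lower edge of the window in kb, under APH above (n = 568) and DMSO below (n = 219). Under APH the minus strand peaks at 62 between 400 and 500 kb and the plus strand reaches 35 between 1000 and 1100 kb. With bait 12 alone the minus strand is highest from 600 to 700 kb, at 28 against 26 from 400 to 500 kb.

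The median plus-strand position lay above the median minus-strand position in all 6 NPC pools under APH. With bait 12 the distance was 124 kb in line 1 (54.79 against 54.66 Mb) and 211 kb in line 2 (54.86 against 54.65 Mb). With bait 7 it was 316 and 404 kb, and with bait 15 187 and 264 kb. The mean was 251 ± 99 kb (SD, n = 6, exact two-sided sign-flip p = 0.0312, the smallest that 6 pools allow, adjusted p = 0.0936 over 6 tests). Without the pools of bait 15 it was 264 ± 122 kb in 4 of 4 pools, and there an exact p cannot go below 0.125. With junctions at positions of 1 pool only, it was 197 ± 190 kb and above 0 in 4 of 5 pools (exact p = 0.125).

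The distance is not peculiar to this window. The pooled difference of 194 kb in NPC under APH was exceeded in 218 of 1631 windows with 20 or more junctions on each strand, 13.4%. Their median was 7 kb, with 80% between −225 and 222 kb. Among the 24 windows with as many junctions as the Npas3 window or more, 6 exceeded it. Under DMSO 4 of the 5 NPC pools with 20 or more junctions had the same order, from 92 to 362 kb, and line 2 bait 12 had the opposite, −225 kb from 25 plus and 11 minus junctions. In the 2 ESC pools with 20 or more junctions the distances were 11 and 88 kb.

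**Figure D5:**
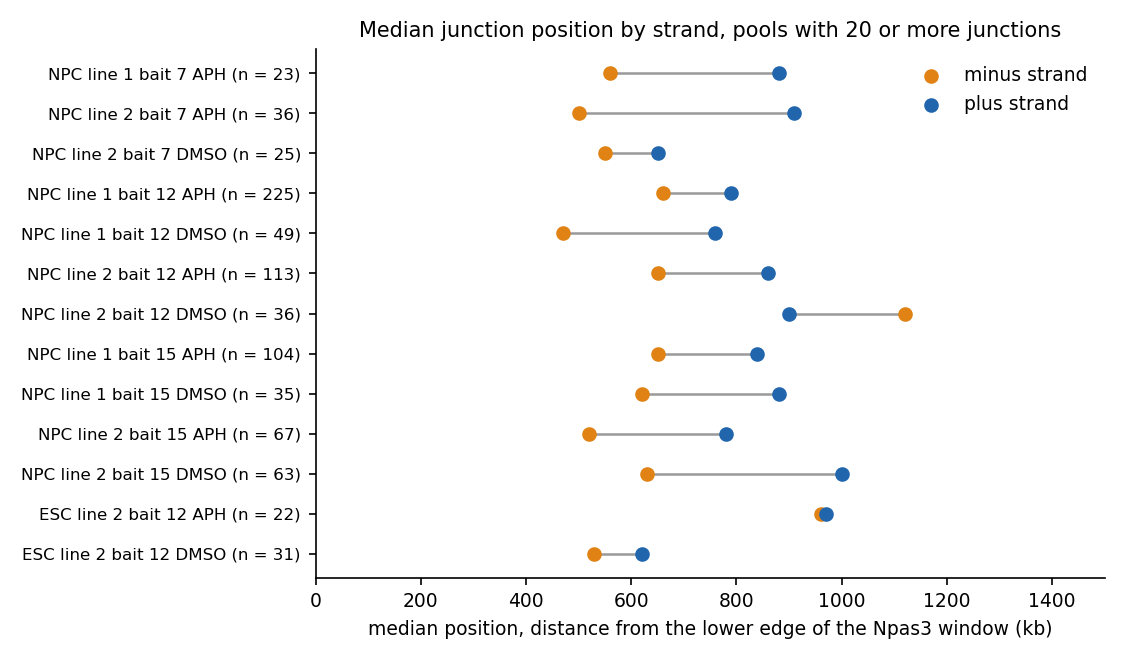
Median position of plus-strand (blue) and minus-strand (orange) junctions in each of the 13 pools with 20 or more junctions in the Npas3 window, as the distance from its lower edge in kb. In all 6 NPC pools under APH the plus median lies to the right of the minus median, by 124 to 404 kb.

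The overall share of plus-strand junctions did not change past the spread between pairs. In NPC with bait 12 it was 47.6% under APH and 59.2% under DMSO in line 1, and 51.3% and 69.4% in line 2. With bait 7 in line 2 it was 52.8% and 36%. With bait 15 it was 41.3% and 57.1% in the pools labelled line 1, and 46.3% and 52.4% in those labelled line 2. Over these 5 pairs the difference was −6.98 ± 14 points (exact sign-flip p = 0.312, adjusted p = 0.374). Without the bait 15 pairs it was −4.32 ± 18.6 points over 3 pairs (exact p = 0.75, where 0.25 is the smallest that 3 pairs allow). Line 2 bait 7 was the exception to a lower plus share under APH, and without it the mean was −12.9 ± 5.27 points in 4 of 4 pairs (exact p = 0.125, the smallest that 4 pairs allow).

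Cells without Xrcc4 join ends mostly by pathways that use short shared sequences, termed microhomology. In the window, 74.7% of all 886 junctions had 1 or more bases that aligned to both bait and prey, 6.55% were blunt and 18.7% had inserted bases. The 33802 other junctions of chromosome 12 gave 75.7, 6.64 and 17.7%. The most frequent overlap was 2 bases in both sets, 22.2% and 21.9%, followed by 3 bases, 18.5% and 19.2%. In the 6 NPC pools under APH the window had 72.9 to 82.6% of junctions with an overlap, against 73.1 to 80.6% for the rest of chromosome 12. The difference was 1.49 ± 4.57 points (exact sign-flip p = 0.438, adjusted p = 0.438), and 1.38 ± 5.83 points without the bait 15 pools (4 pools, exact p = 0.75), so no difference in joining was detectable at this depth.

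Across the 16 pools of baits 7 and 15, the 5 windows whose log2 CPM was most like that of the Npas3 window were on chromosomes 7, 2, 4, 2 and 18. They were found by Pearson's r over pools that differ in depth and share junctions. The closest was chromosome 7 from 109.5 to 111.0 Mb (r = 0.886), at 2383 ± 443 CPM in NPC under APH, 2409 ± 865 in NPC under DMSO and 1098 ± 898 in ESC under APH (SD, n = 4 each). The next were chromosome 2 from 123.0 to 124.5 Mb (r = 0.816) and chromosome 4 from 124.5 to 126.0 Mb (r = 0.801). The last 2 had r = 0.77 on chromosome 2 and 0.769 on chromosome 18. Without the NPC pools of line 2 bait 15 the 5 values were 0.752 to 0.878 over 14 pools. Like the Npas3 window, all 5 had a lower mean in ESC than in NPC under APH, a property the choice by likeness favours.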

How the data were processed

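Per the labels' protocols, the HTGTS libraries came from LAM-PCR on genomic DNA. Bowtie2 and the mm9 build are named in the submitters' processing notes; the junction caller and tool versions were not stated there. Each row of a deposited table is 1 junction read, per the file headers, so the unit is an unnormalized count of junctions. The 24 tables held 2037405 rows; 18609 repeated read names within a table and 2 rows without a position were removed, and 2018794 junctions remained. In 3 tables the experiment letters did not match the labels, and these were used as pools only.

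Junctions within 5 Mb of the pool's bait break (chromosome 7, 80451956; chromosome 12, 13000729; chromosome 15, 86848129) and windows within 5 Mb of any break were left out. Counts in 1.5 Mb windows were filtered (filterByExpr, minimum count 5) and fitted with edgeR 4.0.16 in R 4.3.3 (TMM, quasi-likelihood) on all 24 pools, with 12 blocks of cell type, line and bait for APH effects and 6 blocks of line and bait for NPC against ESC, at an adjusted p of 0.05. Pools of the same line and bait share a cell line and a bait; their APH and DMSO deviations correlated in every block. Differences of shares and positions were tested by exact two-sided sign-flip tests over pools or pairs with 20 or more window junctions (scipy 1.17.1); local shares had no minimum. On simulated counts with 200 of 1447 windows changed, the fit for APH in NPC with bait 12 found 10% of windows changed 2-fold and 81.5% of those changed 4-fold. With baits 7 and 15 it found 64.5% and 100%. The simulated pools were independent and correctly labelled, whereas the NPC pools of bait 15 share positions under conflicting treatment labels. The recovery with baits 7 and 15 may therefore be lower in these data, which was not tested.

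The window, the comparisons and the alternatives were chosen with earlier results of these data known. Named besides the window were the 2 windows on each side and the 5 most correlated windows over the pools of baits 7 and 15 (prior count 2).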

Additional observations from a re-analysis of the deposited data

Results flagged for a closer look

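In 28 groups of pools or experiments, 2 values stood far from the others of their group, where chance alone flags about 1 group in 20. Experiment A of NPC line 1 bait 7 APH had 0.138% of its junctions in the window, from 9 junctions, while the other 3 experiments had 0.0505 to 0.061%. Experiment A of ESC line 2 bait 7 APH had 0.0565%, from 1 junction, while the other 3 experiments had none.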

How the results depend on the processing

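Of 290 recomputed values for 16 results, 243 kept their direction and their side of the threshold, 25 no longer passed, 11 newly passed and 11 changed sign. Here fits were judged by the adjusted p and exact tests by the unadjusted p. Of the 25, 9 belong to the distance between strands and 7 to the local share in ESC. Those 2 results had an adjusted p of 0.0936 (exact sign-flip test) and so never passed after adjustment. The width with no minimum of junctions newly passed by unadjusted p only. For these the cause was not tested, except that exact tests over 5 pairs or fewer cannot pass. The APH change in NPC with bait 12 ranged from 1.36 to 1.40 when a line or a pair of pools was left out (adjusted p 0.000716 to 0.707, 4 of 8 past the threshold), and was 0.96 and 0.44 in the outer 500 kb bins. NPC against ESC under APH with baits 7 and 15 ranged from 2.02 to 3.38 in such fits and was 1.39 in the third bin. With bait 12 it ranged from 1.37 to 1.56 (adjusted p 0.034 to 0.71), and it newly passed at 2.48 in the middle bin, 1.63 with each position and strand once, 1.48 without blocks, 1.59 with DESeq2, 1.5 without the NPC pools of line 2 bait 15 or with the line 1 experiments labelled alike in both tables, 1.52 without all NPC pools of bait 15 and 2.13 with single experiments. The APH change in NPC minus ESC newly passed at 2.19 with single experiments (adjusted p = 0.0218 over 173 windows), some of which share positions within a pool, and was −0.51 in the third bin.

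Signs also turned for values that never passed. The APH change in NPC with baits 7 and 15 was −0.09 and −0.34 in the outer bins, and that in ESC with baits 7 and 15 was 0.13 in the third bin. The APH change in ESC with bait 12 was −1.05 and −0.34 in the first and second bins, −0.06 with all junctions beyond 5 Mb as library size, −0.00295 with junctions off the bait chromosome and −0.24 with single experiments. The microhomology difference was −0.796 points with junctions at positions of 1 pool only. Leaving out a pair, the local share in ESC ranged from −8.07 to −5.88 points and was −5.09 with positions of 1 pool only. The distance between strands ranged from 221 to 277 kb, and was 248 kb without NPC line 2 bait 15, 264 kb without bait 15 and 197 kb with positions of 1 pool only.

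Experiment letters did not pair the samples in their deviations over the tested windows. Over 35 APH and DMSO pairs with the same letter, these correlated at −0.182 to 0.209 (median 0.00139), and 8 correlated best with their own letter. By sequencing run the letters did go together, since 30 of the 35 pairs were read in the same run, going by the read names. With the letter as a replicate block over single experiments, the APH change in NPC was 1.37 with bait 12 (adjusted p = 1.3e-05) and 0.28 with baits 7 and 15. In ESC it was −0.09 and −2.09, the difference between cell types was 2.07 (adjusted p = 0.0582, not passing), and that between bait classes was 1.09. Single experiments come from the same 2 lines and some share positions, so they are not independent replicates. The p-values of this fit, over 164 windows, are not comparable with those over pools. Over all windows, the count called higher for APH in NPC with baits 7 and 15 was 34, against 66 without the pools of line 2 bait 15 and 19 with DESeq2. It was 3 without line 1 bait 15, 16 without line 1 bait 7, 19 without line 2 bait 7, 77 without line 2 bait 15 and 0 without line 1. With bait 12 it was 30, 15 with DESeq2, 7 and 0 without the bait 12 pools of line 1 and line 2, 46 without line 2 bait 15, and 4 and 7 without line 1 and line 2. ESC pools with baits 7 and 15 held at most 5 window junctions, which limits every ESC value there.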
